A study of Mus musculus with 54 samples.

Results

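Zfp_MB016 is a KZFP, a KRAB zinc finger protein, encoded in the Chr4 cluster of the BL6J strain, and its binding sites are the 6183 peaks of its ChIP-seq list. Of these peaks, 6170 lie on chromosomes and 13 on unplaced scaffolds, and those on chromosomes were placed on sequence and genes. The 42 lists of the series hold 42 KZFPs, each from 1 library of F9 cells (a mouse embryonal carcinoma line) that over-expressed the KZFP with an HA tag at its C terminus. Zfp_MB016 belongs to batch 4, which has 20 of the lists, and its peaks were called in anti-HA ChIP against the input mixed from the cultures of that batch. The lists it is set against are the other 41, from 5 batches, and in particular Zfp_MB005 (batch 3) and Zfp_MB036 (batch 5). Every culture carried a codon-optimized transgene inserted by a Sleeping Beauty transposon vector and selected with puromycin, so the sites are those of an over-expressed protein, and no list has a repeat library. The intervals given are exact 95% binomial intervals that cover counting error only, and the peak lists give no read depth.

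KZFPs bind DNA through an array of zinc fingers and recruit the corepressor TRIM28 (KAP1) through their KRAB domain, which brings in the histone methyltransferase SETDB1 and leads to H3K9me3. Intracisternal A particles (IAPs) are a young and still active family of mouse endogenous retroviruses. A complete IAP provirus has an internal region between a pair of long terminal repeats (LTRs), the LTR holds the viral promoter, and recombination between the LTRs of 1 provirus leaves a solo LTR.

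The sequences that carry the results are given first. The authors found the MEME motif listed for Zfp_MB016 in the sequence around the summits of this same list. The motif begins with 12 letters, called the site below, which are read from the 5′ end as positions 1 to 12. They are followed by A or G. A copy that holds the site without a substitution is called intact. The motif predicted for the protein from its zinc fingers is also shown, with the 12 letters that match the site best in capitals. It differs from the site by C6G and G12A, where the first letter is that of the site.
Site: ACGTCCTAGGCG
Predicted motif: gtcatgagagACGTCGTAGGCAgaagat

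The next 3 sequences are stretches of IAP LTRs in the direction of the provirus, shown because they differ in how often the copies that carry them were bound. The site is in capitals, and some letters outside it differ as well. The first is the most frequent stretch of 120 bp around the intact site and occurs in 178 LTR copies, of which 152 held a Zfp_MB016 summit. The second is the next most frequent one (129 copies, 104 bound). The third holds the substitution T7G and occurs in 246 copies, of which 0 were bound. The positions are those of 1 copy in GRCm39.
Intact site, chr1:14068914-14069033, plus strand: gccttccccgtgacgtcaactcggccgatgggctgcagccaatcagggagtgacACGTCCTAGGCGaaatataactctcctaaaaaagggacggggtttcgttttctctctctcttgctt
Intact site, chr1:5874677-5874796, minus strand: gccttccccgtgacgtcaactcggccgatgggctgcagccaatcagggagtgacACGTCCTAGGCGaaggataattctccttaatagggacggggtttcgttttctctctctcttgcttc
T7G, chr1:11957456-11957575, minus strand: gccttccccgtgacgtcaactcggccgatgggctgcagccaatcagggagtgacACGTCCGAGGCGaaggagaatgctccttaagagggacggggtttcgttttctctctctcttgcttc

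The fold enrichment over input that MACS2 gave each peak ranged from 10.0 to 372, with a median of 16.9, and 3773 of the 6183 peaks were under 20. The -log10 q was at least 22.2 in every peak, and the median peak width was 559 bp. The names of the peaks carry the caller's numbers up to 27558, so the deposited list holds 22.4% of the peaks numbered in this library.

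To find how many sites lie on IAP LTRs, the LTRs were rebuilt from the genome. IAP internal regions were aligned to the chromosomes, direct repeats at their ends gave 2632 pairs of LTRs with a median identity of 99.6% within a pair, and 20 groups of similar LTRs were used to find all copies at 80% identity or more. A peak counted as on an LTR when at least 100 bp of the 200 bp around its summit lay on a copy. Of the Zfp_MB016 peaks, 3271 of 6170 (53.0%, 51.8 to 54.3) were on an LTR. These LTRs cover little of the genome, since 0.172% of all tiles of 200 bp met the same rule. Each of the 3271 peaks lay on a different copy. Peaks on LTRs had a median fold of 18.8 and reached 207, and peaks off LTRs had a median fold of 15.3 and reached 372.

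Zfp_MB016 had by far the most peaks on LTRs, but not the highest share. Zfp_MB005 had 428 of 746 peaks on an LTR (57.4%, 53.7 to 60.95) and Zfp_MB036 had 242 of 424 (57.1%, 52.2 to 61.8). In Zfp_MB026 the share was 2.12%. It was at most 1.77% in each of the other 38 lists, and 33 lists had no such peak. The share of Zfp_MB016 had rank 3 of 42 (one-sided exact permutation test over the lists, p = 0.0714, where 0.0238 is the smallest p this test can give). Against Zfp_MB005 it was lower by 4.36 percentage points (difference -4.36, interval -8.07 to -0.571; two-sided Fisher's exact test of the peak counts, p = 0.0243, adjusted over 2 comparisons 0.0485). Against Zfp_MB036 the difference was -4.06 points (-8.85 to 0.853; two-sided Fisher's exact test, p = 0.108, adjusted 0.108). Both tests compare single lists, treat peaks as independent and hold no error between libraries, so they do not show that the KZFPs differ. The batches of the 3 lists differ as well, so list and batch cannot be told apart.

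Of the 10078 LTR copies of at least 250 bp, 3254 held a Zfp_MB016 summit (32.3%, 31.4 to 33.2). Such a copy is called bound. Zfp_MB005 was on 427 of the copies and Zfp_MB036 on 241. An unbound copy is one without a deposited peak. The authors kept peaks by a cutoff on q and on fold enrichment, and the lowest fold in the list was 10.0. The bound shares depend on that cutoff, since at a fold of at least 20 the share of all copies was 14.8% and that of copies with the intact site 30.2%, against 67.8% with all peaks. Peaks that overlapped a peak of an empty vector control had been removed, and reads with several equally good alignments had been placed at random among them. F9 cells also come from another mouse strain than the reference genome, and whether each copy is present in F9 cells was not tested.

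The bound share differed widely between groups of LTRs, of which 18 had at least 100 copies. Group 15 had the highest share, with 142 of 171 copies bound (83.0%, 76.6 to 88.3), and 146 of its copies held the intact site. It was followed by group 11 (106 of 138, 76.8%) and group 5 (394 of 590, 66.8%). The largest bound number was in group 1, the group of most LTR pairs, with 964 of 2283 (42.2%). Groups 9, 10, 12, 7, 17, 2 and 18 had shares of 40.3% to 56.8%, and groups 20, 3, 16 and 4 had 16.3% to 35.8%.

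At the other end, 3 large groups were almost free of peaks. Group 6 had 1 of 2449 copies bound (0.0408%) and none of its copies matched the site with fewer than 3 mismatches. Group 8 had 0 of 338 copies bound (at most 1.09% by the interval), and 332 of these copies held T7G. In group 13, 4 of 185 copies were bound (2.16%). Its most frequent form differs from the site by A1G and G12A (109 copies, 2 bound). In the other groups the same form was bound in 42 of 62 copies (67.74%, 54.7 to 79.1).

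The bound share of LTR copies differed with single letters of the site. The intact site was in 3588 copies, of which 2434 were bound (67.8%, 66.3 to 69.4). The form with T7G was in 1197 copies, of which 1 was bound (0.0835%, 0.00211 to 0.465). With A1G, 466 of 705 copies were bound (66.1%, 62.5 to 69.6), and with G12A 201 of 257 (78.2%, 72.66 to 83.1). C11T left 41 of 320 bound (12.8%), C2T 15 of 120 (12.5%) and G3A 3 of 146 (2.05%). The background for these shares is the 32.3% of all copies.

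**Figure D1:**
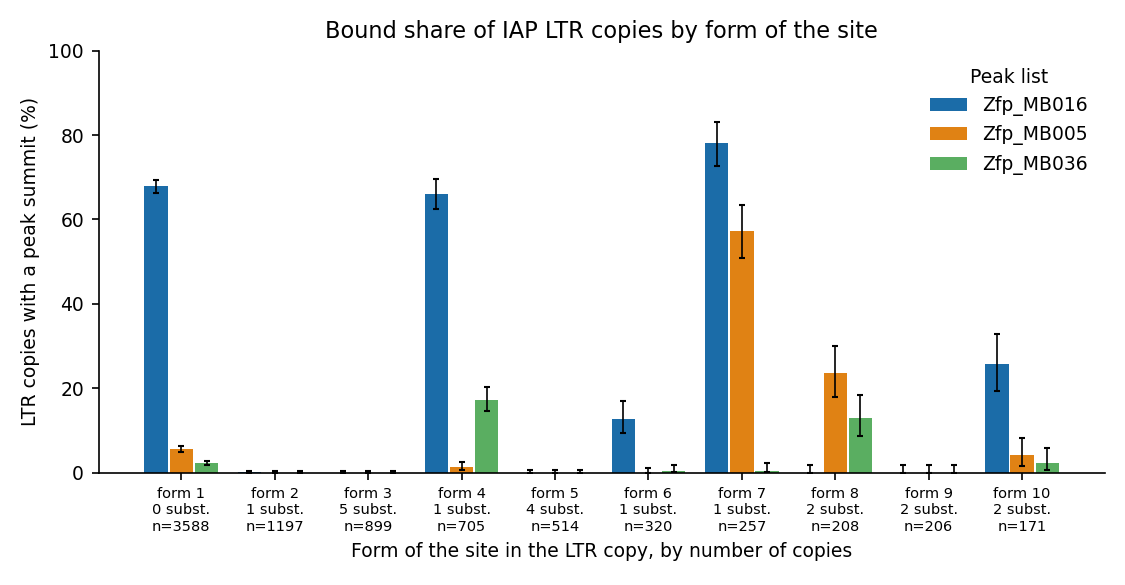
Share of IAP LTR copies with a peak summit (vertical axis, percent) for the 10 most frequent forms of the site (horizontal axis, with the number of substitutions and of copies), in the lists of Zfp_MB016, Zfp_MB005 and Zfp_MB036; bars give the share and lines the exact 95% interval. Forms 1, 4 and 7 (intact, A1G and G12A) were bound by Zfp_MB016 in 66.1% to 78.2% of copies, and form 2 (T7G) in 0.0835%.

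Over all single substitutions, the bound share was high for the first and the last position and low for those between. Copies with 1 substitution at position 1 were bound in 65.6% (466 of 710), and all 466 held A1G, while A1T was in 3 copies and A1C in 2 with 0 bound. At position 12 the share was 76.9% (206 of 268), of which G12A made up 201 and G12T 5 of 10 copies. At positions 2, 3, 7 and 11, each with at least 150 copies, the shares were 10.0%, 2.42%, 0.330% and 12.8%. The copies with a substitution at positions 4, 5, 6, 8, 9 or 10 were few, 6 to 24 for each position, with 0 or 1 bound at each. At position 7, T7C was rare in LTRs, with 3 of 9 copies bound, and T7A was in 7 copies with 0 bound. Forms with more substitutions were bound less, in 8.91% of copies at 2 mismatches (73 of 819) and in 3 of 253 at 3 mismatches. Copies of 1 form are related by descent, so they are not independent of each other.

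**Figure D2:**
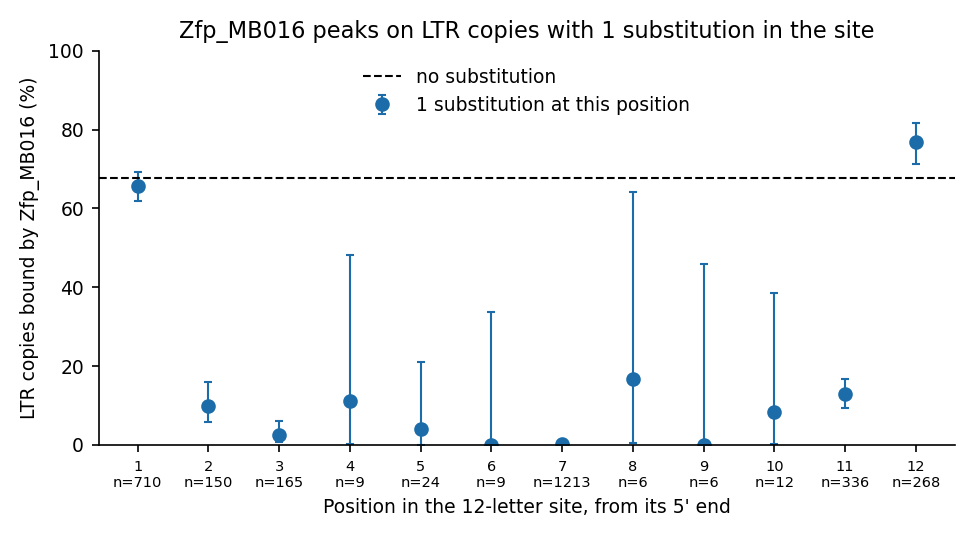
Share of LTR copies bound by Zfp_MB016 (vertical axis, percent) among copies with exactly 1 substitution at each position of the site (horizontal axis, with the number of copies); points give the share, lines the exact 95% interval, and the dashed line the 67.8% of copies with the intact site. Positions 1 and 12 lie near or above the dashed line, and positions 2, 3, 7 and 11 lie far below it.

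The intact site and T7G also differed in bound share where the rest of the LTR was alike. Within group 1 alone, 940 of 1323 copies with the intact site were bound (71.1%), against 1 of 831 with T7G (0.120%). In 9 sequence contexts the other letters of the 120 bp around the site were the same in copies of both forms. In these contexts 248 of 309 copies with the intact site were bound (80.3%), against 1 of 70 with T7G (1.43%). Where the 120 bp around the site occurred only once among the copies, 913 of 1579 copies with the intact site were bound (57.8%), against 0 of 75 with T7G (at most 4.80%). For 102 of the 1196 unbound T7G copies, and 45 of the 1154 unbound intact ones, the deposited peaks on either side carried consecutive numbers, so that the caller had found no peak between them at all. For the others the presence of a removed peak cannot be told from the list.

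The bound share of the intact site differed less with the letters beside it. All groups of LTRs were pooled here and these letters were not compared within a group, so letter and group cannot be told apart. The intact site was bound in 1124 of 1511 copies with T just before it (74.4%, 72.1 to 76.6) and in 1308 of 2073 with C (63.1%, 60.98 to 65.2). With A just after it, at position 13, 1121 of 1482 copies were bound (75.6%, 73.4 to 77.8), and with G 1312 of 2103 (62.4%, 60.3 to 64.5). Zfp_MB005 and Zfp_MB036 split more sharply by the same letters. Zfp_MB005 was on 12.6% of the copies with T before the intact site (190) and on 0.482% of those with C (10), and Zfp_MB036 on 5.29% with T (80) and on 0% with C (0 copies). The MEME motif listed for Zfp_MB005 begins 4 letters upstream of the site and includes that T, as shown here in full.
Zfp_MB005 motif: TGATACGTCCTAGGC

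The forms of the site were shared unequally by the 3 KZFPs. Among the 257 copies with G12A, Zfp_MB016 was on 201 and Zfp_MB005 on 147 (57.2%), while Zfp_MB005 was on 200 of the 3588 intact copies (5.57%). Peaks of Zfp_MB016 on these copies had a median fold of 44.3 (quartiles 30.2 and 64.1), against 18.5 (13.7 and 27.1) on the intact site and 17.5 on A1G. Zfp_MB036 was on 122 of the 705 copies with A1G (17.3%), where Zfp_MB005 had 9. The form with A1G and G9A was the reverse case. In its 208 copies Zfp_MB016 had 0 summits (at most 1.76%), Zfp_MB005 had 49 (23.6%) and Zfp_MB036 had 27 (12.98%).

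On the copies themselves, Zfp_MB016 was on 374 of the 427 that Zfp_MB005 bound (87.6%, 84.1 to 90.6) and on 190 of the 241 that Zfp_MB036 bound (78.8%, 73.1 to 83.8). On the 57 copies in both of those lists, Zfp_MB016 was on 48, with a median fold of 66.9. On the 326 copies it shared with Zfp_MB005 alone the median fold was 51.7, on the 142 shared with Zfp_MB036 alone 20.7, and on the 2738 with neither 17.5. These folds were all measured in the 1 Zfp_MB016 library.

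Copies in proviruses were bound more often than copies called solo. A copy was called solo when it was in no LTR pair and had no match to the internal region close by. Ends of proviruses whose pair was not found can be among them, so the class is wider than the solo LTRs defined above. With the intact site, 1548 of 2090 LTRs of a provirus were bound (74.1%, 72.1 to 75.9), against 782 of 1330 copies called solo (58.8%, 56.1 to 61.5). Within group 1 the shares were 75.66% (858 of 1134) and 42.3% (63 of 149). Of the copies inside protein-coding genes, 1270 lay against the direction of the gene and 415 along it. Among those with the intact site, 319 of 441 antisense copies (72.3%, 67.9 to 76.5) and 64.3% of 157 sense copies (56.3 to 71.8) were bound, and these intervals overlap. The Y chromosome stood apart, with 2 bound of 43 intact copies (4.65%), against 59.3% to 80.3% on each of the other chromosomes. It had few peaks of any kind, 15 in all or 0.170 per Mb, against 2.08 to 3.02 per Mb on the others. The presence of its sequence in F9 cells and the placing of reads on it were not tested.

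Zfp_MB016 peaks formed pairs at the ends of proviruses. The LTRs of 1 provirus are nearly identical, and reads that fit both had been placed at random. Both peaks of a pair can therefore hold reads from the same LTR. Of the 6149 pairs of neighbouring summits, 1067 (17.4%) were under 10 kb apart, while the median distance was 216801 bp. In 836 of these 1067 (78.4%) the summits lay on the LTRs of 1 provirus, in 98 both were off LTRs, and in 47 1 was on and 1 off. The distances within proviruses had a median of 4208 bp and ran from 1318 to 10680 bp. The fullest class of 50 bp, 6700 to 6750 bp, held 85 provirus pairs, and 264 lay between 6.5 and 7 kb. Shorter proviruses gave further classes, with 213 pairs between 2 and 3 kb and 177 between 3 and 4 kb. The share of neighbours 3 to 10 kb apart was 12.4% in Zfp_MB016, second of the 42 lists after Zfp_MB036 (19.1%).

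**Figure D3:**
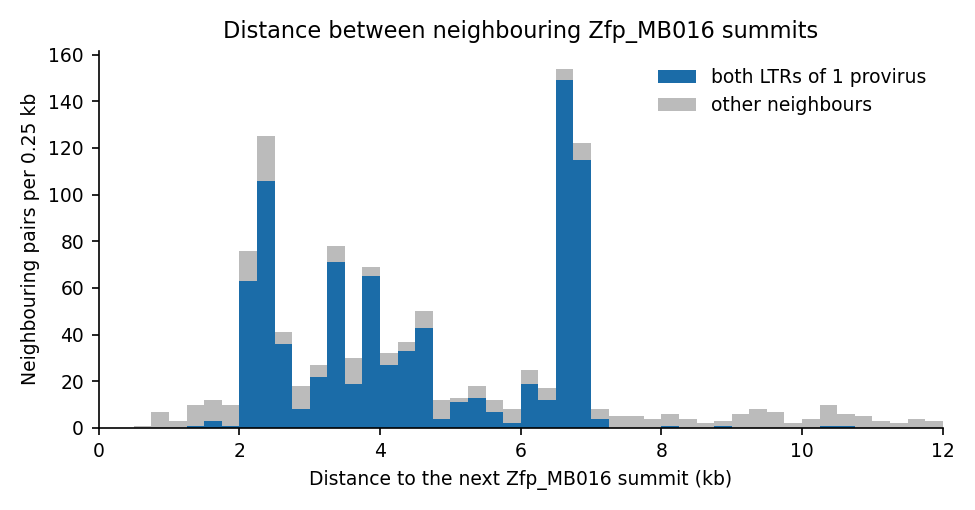
Number of neighbouring Zfp_MB016 summits (vertical axis, pairs per 0.25 kb) by the distance between them (horizontal axis, kb), split into pairs on both LTRs of 1 provirus and other neighbours. Of the provirus pairs 264 lie between 6.5 and 7 kb, and further classes stand between 2 and 5 kb.

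Among the 2632 proviruses, 845 had a summit on both LTRs (32.1%, 30.3 to 33.9), 415 on 1 and 1372 on neither. Because reads that fit both LTRs had been placed at random, a summit on both does not show that the protein was on both. With the intact site in both LTRs, 613 of 969 had both bound (63.3%, 60.1 to 66.3) and 138 had neither. With T7G in both, 0 of 534 had both bound, 1 had 1 bound and 533 had neither. Only 5 proviruses had the intact site in 1 LTR and T7G in the other, and in 2 of them 1 LTR was bound. Where 1 LTR only was bound, it was the 3′ LTR in 265 proviruses and the 5′ LTR in 150. Where both were bound, the 5′ LTR had the higher fold in 362 of 845 (42.8%), and the median log2 ratio of 5′ over 3′ was -0.12 (quartiles -0.51 and 0.30).

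The provirus on chromosome 9 that the study displays shows this arrangement. Its LTRs of 336 bp lie at chr9:11554049-11554384 and chr9:11557327-11557662 around an internal region of 2942 bp, inside an intron of the annotated gene Gm47034. The intact site starts at base 170 of either LTR. Zfp_MB016 had a summit on each, at bases 188 and 3441 counted from the start of the 5′ LTR, with folds of 61.2 and 66.3. Zfp_MB036 had folds of 58.9 and 47.3 on the same LTRs, Zfp_MB005 20.4 and 11.7, and Zfp_MB026 13.2 and 13.8. These folds are relative to the inputs of 3 batches and are not on 1 scale.

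The 5 proviruses whose lower LTR peak was highest spanned 2754 to 7115 bp. The first lies in an intron of Usp24, a deubiquitinase, at chr4:106249966-106253628, with folds of 127 on the 5′ and 207 on the 3′ LTR. Both of its LTRs hold the intact site. The peak on its 3′ LTR, chr4:106249652-106251342, was the highest of all on LTRs. It overlapped a peak of Zfp_MB005, Zfp_MB026 and Zfp_MB036. It also overlapped a peak of Zfp_MB001 and of Zfp_MB028, but neither of these lists had a peak that counted as on an LTR. The other 4 had folds of 96.8 to 132. Their nearest protein-coding genes were Selenof (23095 bp away), Slc4a3 (438913 bp), Selenoi (5981 bp) and Stmn2 (13838 bp). Among the 10 highest peaks on LTRs, 5 held G12A and 5 the intact site. The second of them, 20957 bp from Ect2 (a gene needed for cytokinesis), had a fold of 172. Others lay in Dnajc1, a chaperone of the DnaJ family (fold 150), in Atg2b, a lipid transfer protein of autophagy (134), and 2426 bp from Spin1 (136). The sites under the first and the second peak are shown because they represent the intact and the G12A form.
Usp24 LTR site, minus strand: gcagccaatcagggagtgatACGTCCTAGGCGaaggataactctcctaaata
LTR site nearest Ect2, peak chr3:27129914-27130932, plus strand: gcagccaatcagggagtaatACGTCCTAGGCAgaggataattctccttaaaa

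Peaks on and off LTRs differed in how closely they matched the site. The whole MEME motif of 13 letters, without mismatch and on either strand, was in 2418 of 3271 windows of 200 bp around summits on LTRs (73.9%, 72.4 to 75.4) and in 3 of 2899 off LTRs (0.103%, 0.0213 to 0.302). It occurs in 0.0256% of all tiles of 200 bp. At most 1 mismatch to the 12 letters was found in 96.4% of the windows on LTRs and 2.07% off LTRs. Off LTRs the matches were looser but still placed at the summit. At most 2 mismatches were found in 558 of the 2899 windows (19.2%, 17.8 to 20.7), against 19 of the windows 1000 bp upstream (0.655%). At most 3 were found in 53.3%, against 6.31% upstream. The median distance of the match to the summit was 11 bp on LTRs (at most 1 mismatch, 3180 peaks) and 11 bp off LTRs (at most 2 mismatches, 571 peaks, searched within 150 bp of the summit), and the match was within 25 bp in 80.5% and 82.8% of these peaks.

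**Figure D4:**
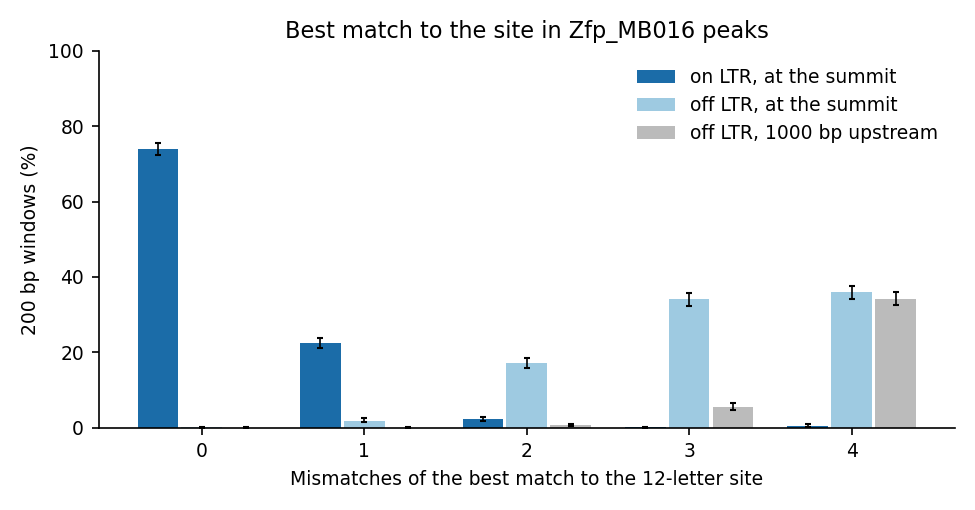
Share of 200 bp windows (vertical axis, percent) by the mismatches of their best match to the 12 letters of the site (horizontal axis, 0 to 4), for windows at summits on LTRs, at summits off LTRs, and 1000 bp upstream of the summits off LTRs; lines give exact 95% intervals. On LTRs 74.0% of windows held the intact site, and off LTRs 17.2% had 2 mismatches and 34.1% had 3, against 0.621% and 5.66% upstream.

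The 558 matches off LTRs showed which letters were held. Positions 5, 6, 9 and 10 had the letter of the site in 98.9%, 96.95%, 99.1% and 96.2% of the matches. Position 12 had it in 44.1%, position 11 in 66.9% (A in 27.6%) and position 7 in 68.1%. At position 7 C was in 28.1% and G in 1.08%. A single family of repeated windows, described with the repeats, supplied many of these letters. In the 452 matches outside it, position 7 had T in 83.2%, C in 12.2% and G in 1.33%, position 11 had C in 82.5% and A in 10.6%, and position 12 had G in 31.0%. These matches were selected by their likeness to the site, so the shares are a description. The 8 letters of positions 3 to 10 were counted separately on both strands. The form with T at position 7, GTCCTAGG, was in 97.8% of windows on LTRs, 14.3% off LTRs and 0.470% of all tiles. With C there, GTCCCAGG was in 0.245% on LTRs, 13.6% off LTRs, that family included, and 0.888% of tiles. With G there, GTCCGAGG was in 0% on LTRs, 0.828% off LTRs and 0.0905% of tiles.

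Many sites off LTRs were at promoters. Of the 2899 windows, 347 (11.97%) aligned to another window off LTRs over at least 100 bp at 80% identity, which counts likeness among the peaks and not copies in the genome. Within 1 kb of a transcription start lay 1313 (45.3%, 43.5 to 47.1), where 8.38% of all tiles have their centre, and 911 were in introns (31.4%), 156 in exons (5.38%) and 519 between genes (17.9%). On LTRs 4.01% of the peaks were within 1 kb of a start and 63.7% between genes. The median fold of promoter peaks off LTRs was 15.5. A match with at most 2 mismatches within 150 bp of the summit was in 16.8% of the promoter peaks (221) and in 22.1% of the others off LTRs (350). Without the largest family of similar windows, the shares were 16.4% (215) and 16.8% (249).

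The 10 peaks of highest fold off LTRs were all within 1 kb of a transcription start, so they are also the 10 highest promoter peaks. The highest of the whole list was 166 bp from a start of Pfn2, a profilin that binds actin, at chr3:57754247-57755487 with a fold of 372. Its best match to the site had 3 mismatches. Ppp1r15b, which directs a phosphatase to the translation factor eIF2α, had a fold of 243 and a match with G12C alone, 3 bp from the summit. Adipor2, a receptor for adiponectin, had a fold of 208 and a match with T4C and G10C. Hsp90aa1, the stress-inducible chaperone HSP90α, had 205, Ttc17 had 184 and Txn1, the cytosolic thioredoxin, had 157. The remaining 4 starts were those of Gm57461, Zfp790 (itself a zinc finger gene), Akirin1 and Dclk2 (a doublecortin-like kinase), with folds of 151 to 156. Apart from Ppp1r15b and Adipor2, the best match to the site in each of the 10 peaks had 3 or 4 mismatches. Of the 10, Pfn2, Ppp1r15b, Hsp90aa1 and Ttc17 were also in the Zfp_MB005 list, and Hsp90aa1, Ttc17 and Dclk2 in that of Zfp982. The best matches of 3 promoters are shown for comparison with the LTRs, from which they differ in the letters on both sides of the site. That of Ttc17 has 3 mismatches (A1G, T7C and G12C).
Ppp1r15b, peak chr1:133058302-133059964, minus strand: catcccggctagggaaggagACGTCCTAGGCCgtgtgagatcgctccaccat
Adipor2, peak chr6:119394231-119395174, plus strand: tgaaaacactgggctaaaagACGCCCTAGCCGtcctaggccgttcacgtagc
Ttc17, peak chr2:94236031-94237104, minus strand: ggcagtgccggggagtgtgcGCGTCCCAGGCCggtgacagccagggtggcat

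One repeated sequence other than the IAP LTR stood out. The largest family of windows off LTRs had 111 peaks, of which 107 matched the site with at most 2 mismatches and 82 were between genes. Its median fold was 17.8 and its highest 97.4. The member that aligned to most others, shown here, holds T7C and C11A, the most frequent form off LTRs. The genome has 319 copies of this window at 80% identity over 150 bp, of which 33.9% were bound (28.7 to 39.3). With T7C and C11A, 40.7% of 248 copies were bound, and 7 of 71 with other forms. The family was not given a name, since no repeat annotation was used. The next family, of 45 peaks, had 0 matches of that kind and 7773 copies in the genome, of which 44 were bound.
Family member, chr12:76790454-76790653, minus strand, the bases around the site: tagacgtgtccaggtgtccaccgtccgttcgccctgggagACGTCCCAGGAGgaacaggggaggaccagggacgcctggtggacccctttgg

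Most Zfp_MB016 sites were in no other list, but the list is the longest, with 6183 of the 25012 peaks of all 42 lists. On LTRs Zfp_MB005 and Zfp_MB036 had 428 and 242 peaks, too few to overlap most of the 3271. The shares below therefore depend on the lengths of the lists and do not show that a site is particular to Zfp_MB016. The share to be found from list length alone was not worked out. Of the 6170 peaks, 5048 (81.8%, 80.8 to 82.8) overlapped no peak of the other 41 lists, 912 overlapped a peak of 1 list, 146 of 2 and 64 of 3 or more. The share in at least 1 other list was 18.1% on LTRs (592) and 18.3% off LTRs (530). Off LTRs it was 26.8% at promoters (352 of 1313) and 11.2% elsewhere (178 of 1586). Shared and private peaks differed in fold mainly on LTRs. There the median fold was 44.4 for peaks in at least 1 other list and 17.2 for peaks in none, and off LTRs it was 16.4 and 15.1.

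The lists that shared most with Zfp_MB016 were Zfp_MB005, Zfp982, Zfp_MB036, Zfp_MB026 and Zfp_MB011. Zfp_MB005 overlapped 467 Zfp_MB016 peaks (7.57% of them, and 62.5% of the Zfp_MB005 list), 378 on LTRs and 89 off, with a median distance between summits of 10 bp. Zfp_MB036 overlapped 195 (3.16%, and 46.0% of its list), 193 of them on LTRs, at a median of 36 bp. Zfp982 overlapped 307 (4.98%, and 6.41% of its list), with 306 off LTRs, and the summits were further apart, at a median of 188 bp. Zfp_MB026 overlapped 141 (2.29%, and 3.43% of its list), of which 94 were on LTRs, at 43 bp. Zfp_MB011 overlapped 37 (0.600%, and 12.6% of its list) at 382 bp. Of the other 41 lists, 4 shared no peak.

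**Figure D5:**
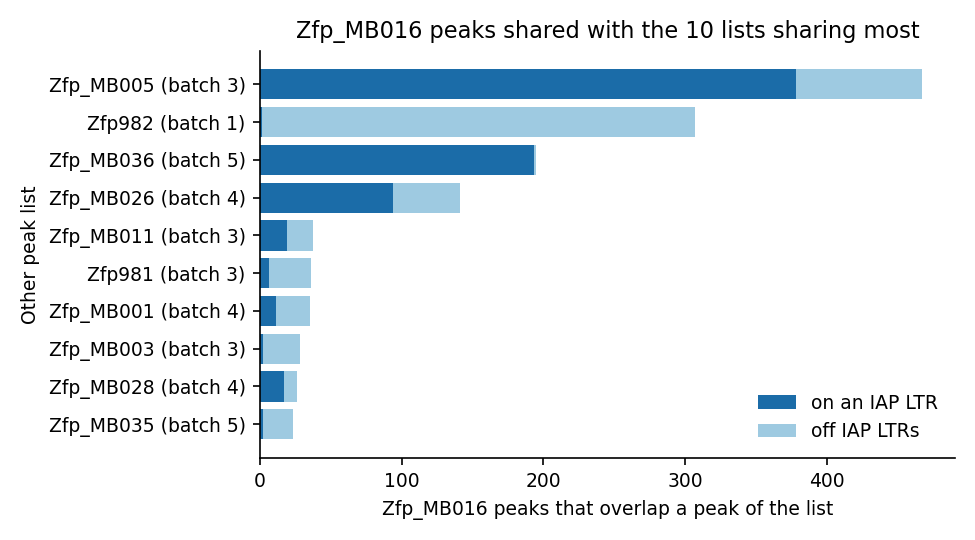
Number of Zfp_MB016 peaks that overlap a peak of another list (horizontal axis) for the 10 lists with most of them (vertical axis, with their batch), split into peaks on and off IAP LTRs. Zfp_MB005 (467 peaks) and Zfp_MB036 (195) overlap mainly on LTRs, and Zfp982 (307) almost wholly off them.

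By batch, the 19 other lists of batch 4 overlapped 256 Zfp_MB016 peaks and the 22 lists of the other batches 1003. The other batches hold Zfp_MB005 (467 shared peaks), Zfp982 (307) and Zfp_MB036 (195), so KZFP and batch cannot be told apart in these counts. Off LTRs the peak in most lists was 15 bp from a start of Polrmt, the mitochondrial RNA polymerase, with a fold of 23.6 and 12 other lists. The next were on chromosome Y (fold 10.9, 11 lists), in an exon of Zfp777 (18.7, 10 lists), 615 bp from a start of Gm57020 (12.01, 8 lists) and at Hmgxb4 (38.7, 7 lists). Their best match to the site had 4 or 5 mismatches. On LTRs the peaks in most lists were the 2 of the Usp24 provirus (5 and 4 lists) and those in introns of Map3k4 (fold 89.1, 4 lists) and Zdhhc17 (57.4, 4 lists), and all 4 held the intact site. Zfp_MB001, Zfp_MB028 and Zfp992 are among these lists through overlap of the peaks alone, since none of their own peaks counted as on an LTR. A further 34 peaks on LTRs were each in 3 other lists, among them both peaks of the chromosome 9 provirus.

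Genes known for variably methylated IAPs were then examined, with 15 of 16 symbols found in the annotation. Variably methylated IAPs are copies whose DNA methylation differs between genetically identical mice. Of the 15 genes, 12 had LTR copies of at least 250 bp inside them or within 10 kb, 23 copies in all. Zfp_MB016 had a peak on an LTR at 2, Sntg1 and Pink1, and the other 10 genes with copies had none. Genes in this list were known for IAPs, so they are set beside genes that also have a copy. A bound copy was at 2 of these 12 genes (16.7%, 2.09 to 48.4) and at 761 of the 1901 protein-coding genes with a copy by the same rule (40.03%, 37.8 to 42.3). Sntg1 (a syntrophin) held an intronic provirus with the intact site in both LTRs and folds of 14.8 and 33.8. Pink1 (a mitochondrial kinase) had an LTR called solo with A1G, 1301 bp away, with a fold of 17.9, which was also in the Zfp_MB036 list. The form with A1G, T4C and G12A was in all LTR copies at Marveld2, Rnf157, Slc15a2, Cdk5rap1 and Mbnl1, and none of them was bound. In the whole genome that form was in 99 copies, of which 2 were bound (2.02%). The copies at Rab6b and Ect2l held A1G and G9A those at Eps8l1 A1G, T7G and G12A, the copy at Asxl3 A1G and G9A, and those at Bmf A1G, G9A and C11T, also without a Zfp_MB016 summit. Whether the copies counted are the variably methylated ones was not tested.

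In the Chr4 KZFP cluster itself, between Tnfrsf8 and Miip, the reference genome holds 34 LTR copies in 2.90 Mb. Of the 34 copies 3 were bound, beside 32.3% of all copies, and 11 held the intact site. A further 2 Zfp_MB016 peaks lay off LTRs. The reference has gaps in this cluster, and copies in them were not counted.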

How the data were processed

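Paired reads were mapped by the authors to the GRCm39 genome (BWA), with equally good alignments placed at random. Each library had its own MACS2 2.2.7.1 peak calling against the input of its batch. They removed peaks overlapping those of empty vector controls and filtered the rest on q and fold enrichment. The submitters' processing notes also name SAMtools 1.19 and deepTools 3.5.4. The deposited fold enrichment is a ratio over input, the deposited -log10 p and -log10 q values come from MACS2, and the deposited score is a display score of the caller. The score and -log10 p were not used. Read depth is not in the lists, so precision is limited by the number of peaks. The authors report the number of reads of each library separately. These numbers differ between libraries, and the counts of peaks and bound copies were not adjusted for them.

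Chromosome accessions were translated to numbers. As a check, the site was in 2423 of 6170 summit windows, and in 0 with the chromosomes shifted by 1. LTR copies were found with blastn 2.17.0, internal regions and LTRs at 80% identity, and grouped at 85%. Genes came from the GENCODE annotation of GRCm39. Peaks shared at least 1 bp. Shares carry exact 95% intervals (scipy 1.17.1). The matching and counting functions were tested on simulated data. The named items were the 10 highest peaks on LTRs, off LTRs and at promoters, the 5 in most lists, the chromosome 9 provirus, the 5 highest proviruses, LTR groups of at least 100 copies, the 10 most frequent forms, the 5 lists sharing most, and the gene list. Forms outside these 10 were chosen after their values were seen. The members, lists and tests were chosen with earlier results of these data known.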

Additional observations from a re-analysis of the deposited data

How the results depend on the processing

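The share of Zfp_MB016 peaks on an LTR (53.0%) was 49.4% with LTR copies of at least 90% identity, 48.7% with the LTR of the chromosome 9 provirus alone and 62.1% among peaks of a fold of at least 20. It was 53.5% at 70% identity and 53.0% with the summit inside the copy or a -log10 q of at least 20. The share of LTR copies bound (32.3%) was 19.3% of copies of at least 100 bp, 38.5% at 90% identity and 14.8% with folds of at least 20. Without group 6, an alternative chosen after seeing the data, it was 42.6%. With at most 1 mismatch the whole motif was in 96.4% of peaks on LTRs and 1.45% off LTRs. Neighbours 3 to 10 kb apart (12.4%) were 8.30% with folds of at least 20. The share of peaks in another list (18.2%) was 12.4% with summits within 100 bp, 14.4% with 50% of both peaks, 4.15% with lists of batch 4 only, 16.3% with the other batches only and 9.98% without Zfp_MB005 and Zfp_MB036. Peaks off LTRs within 500 bp of a transcription start were 39.2%, against 45.3% within 1 kb. For the forms of the site, 3 alternatives were chosen after seeing the data. The bound share of the intact site (67.8%) was 57.8% where its 120 bp occurred once, 71.1% in group 1 and 30.2% with folds of at least 20. That of T7G (0.0835%) was 0% (0 of 75) where its 120 bp occurred once. Widening the motif search and restricting proviruses to LTR pairs of at least 90% identity moved the shares by less than their intervals. The bound share of T7G was 0.120% in group 1. Off LTRs, the share of peaks outside promoters with a match of at most 2 mismatches (22.1%) was 16.8% without the largest family of similar windows, also chosen after seeing the data, and at promoters it was 16.4% against 16.8%. No replicate could be left out because Zfp_MB016 has 1 library. No paired analysis was possible because each KZFP has 1 library.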
